A study of Mus musculus with 5 samples.

Results

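Monocyte and general macrophage marker genes were followed in sorted dendritic cells of the mouse thymus, in 3 libraries of mice whose thymi were taken on day 4 after total body irradiation (TBI) and 2 libraries of untreated mice. The 10 genes were chosen by name, as Ly6c2, Plac8, Vcan and Chil3 (classical monocytes), Ace (nonclassical monocytes), Lyz1, Lyz2 and Cd14 (shared by monocytes and macrophages) and Adgre1 and Cd68 (macrophages), out of 18051 genes in the count table. Every mouse was C57BL/6J and 6 to 8 weeks old. Thymi were pooled, and cells carrying CD45, CD11c and MHC class II were sorted. The labels do not say whether replicates came from separate pools, so the p-values reflect how far these samples vary, which may be technical variation only. CD11c and MHC class II are also carried by some macrophages and monocyte-derived cells, so the gate does not by itself separate these from dendritic cells.

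Monocytes leave the bone marrow for the blood. Mouse classical monocytes carry much Ly6C and enter damaged tissue, where they can turn into macrophages or dendritic cells. Nonclassical monocytes carry little Ly6C and survey the inner wall of blood vessels. Macrophages of the thymus clear the many thymocytes that die during selection. Ly6c2 encodes the surface protein Ly6C, Plac8 a small cysteine-rich protein, Vcan the matrix proteoglycan versican and Chil3 the chitinase-like lectin Ym1. Ace encodes angiotensin-converting enzyme, Lyz1 and Lyz2 the P and M lysozymes, Cd14 the co-receptor for lipopolysaccharide, Adgre1 the macrophage antigen F4/80 and Cd68 a glycoprotein of late endosomes and lysosomes.

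Several of these genes have near-identical copies, and how reads that match both copies were counted is not stated in the sources used here. Coding stretches are shown for the lysozyme and Ly6C pairs because their counts bear on the results given further on. They come from GENCODE vM21 transcripts, which lie on the minus strand in GRCm38 (mm10). Capitals mark the bases at which the copies differ, and positions are counted from the first coding base. The lysozyme stretch covers coding bases 37 to 156 on chromosome 10, where 14 bases differ.
Lyz1: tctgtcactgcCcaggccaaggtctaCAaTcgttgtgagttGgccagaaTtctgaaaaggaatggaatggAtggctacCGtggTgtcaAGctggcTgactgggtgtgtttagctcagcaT
Lyz2: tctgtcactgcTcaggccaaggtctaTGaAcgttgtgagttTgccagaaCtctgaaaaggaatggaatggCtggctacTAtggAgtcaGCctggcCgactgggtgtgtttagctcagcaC
The Ly6C stretch covers coding bases 1 to 120 on chromosome 15, where 6 bases differ.
Ly6c2: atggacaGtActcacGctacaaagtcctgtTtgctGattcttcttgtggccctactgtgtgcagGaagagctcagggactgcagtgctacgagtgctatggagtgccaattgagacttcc
Ly6c1: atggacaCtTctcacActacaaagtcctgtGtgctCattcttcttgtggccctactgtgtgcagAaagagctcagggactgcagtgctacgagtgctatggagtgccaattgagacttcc

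Over 444 aligned coding bases Lyz1 and Lyz2 differed at 22 and were 95.05% identical, with a longest identical run of 118 bases. Over 393 coding bases Ly6c2 and Ly6c1 differed at 9 and were 97.7% identical, with a longest identical run of 188 bases. Of all 50-base words in each gene's longest protein-coding transcript, 32.6% of those of Ly6c2 also occurred in Ly6c1, 16.1% of those of Lyz1 in Lyz2 and 15.4% of those of Lyz2 in Lyz1. For Chil3, 18.5% of the words also occurred in its near-copy Chil4 and 14.6% in Gm6522. Plac8, Vcan, Ace, Cd14, Adgre1 and Cd68 shared no such word with another gene. Values of Ly6c2, Lyz1, Lyz2 and Chil3 therefore carry an uncertainty from shared reads that the counts do not show.

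In GRCm38 coordinates of GENCODE vM21, Lyz2 lies at chr10:117277331-117282321 and Lyz1 beside it at chr10:117287797-117292868. Ly6c2 lies at chr15:75108158-75111970, Plac8 at chr5:100553725-100572245, Vcan at chr13:89655312-89742509 and Chil3 at chr3:106147554-106167564. Ace lies at chr11:105967945-105989964, Cd68 at chr11:69664213-69666153, Adgre1 at chr17:57358691-57483527 and Cd14 at chr18:36725067-36726798. Exons of Ace overlap the antisense gene Gm11651 by 295 bases, and without a stated strand setting reads of the 2 genes cannot be told apart there. The antisense gene Gm4117 and the pseudogene Gm16318 lie inside Vcan without sharing exon bases.

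Library depth was similar, at 7549053, 8428589 and 7940442 counts in the TBI libraries and 7346330 and 7227000 counts in the untreated libraries. One count was worth 0.123 to 0.145 CPM, the count divided by the TMM-scaled library size. On the second principal component, with 14.9% of the variance, TBI replicate 1 lay far from TBI replicates 2 and 3. Genes behind the sort, Ptprc (CD45), Itgax (CD11c) and 3 MHC class II chains, were counted in every library. With Cd74 they summed to 42213 to 60163 CPM in TBI libraries and 61371 to 62635 CPM in untreated libraries. Cd74, which is not in the gate, gave 31982, 24120 and 22142 CPM of this in TBI libraries and 28142 and 27766 CPM in untreated libraries. Itgax had 155, 216 and 238 CPM in TBI libraries and 315 and 310 CPM in untreated libraries. Itgax (-0.62 ± 0.18), H2-Ab1 (-0.60 ± 0.16) and H2-Aa (-0.47 ± 0.12) were lower in TBI libraries, calls lost without TBI replicate 2 or either untreated replicate. Of 9 core dendritic cell genes 6 fell, Id2 rose (0.84 ± 0.15, a call lost without untreated replicate 2) and Irf4 and Relb did not pass, and 10 of 11 type 1 dendritic cell markers fell. Numbers given in parentheses behind gene names are log2 fold changes with standard errors, TBI minus untreated.

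The markers did not move as one group, and members of the classical monocyte class differed among themselves. All 3 shared myeloid genes and both macrophage genes rose in TBI libraries, 2 of the 4 classical monocyte genes, Ly6c2 and Plac8, fell, Chil3 and Ace did not pass the test and Vcan had too few counts to enter it. Genes were called with edgeR's quasi-likelihood test at a Benjamini-Hochberg adjusted p of 0.05 over 12046 genes. The low-count filter kept 9 of the 10 markers, all but Vcan. Among all genes tested 23.1% were called, 13.3% higher and 9.79% lower in TBI libraries, and 7 of the 9 markers tested were called. The groups did not overlap for 7 of the 9, against 56.1% of all genes tested. The markers' median log2 fold change was 1.06, against -0.01 over all genes tested. In bulk RNA, more or fewer cells of a type and more or less RNA per cell cannot be told apart.

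**Figure D1:**
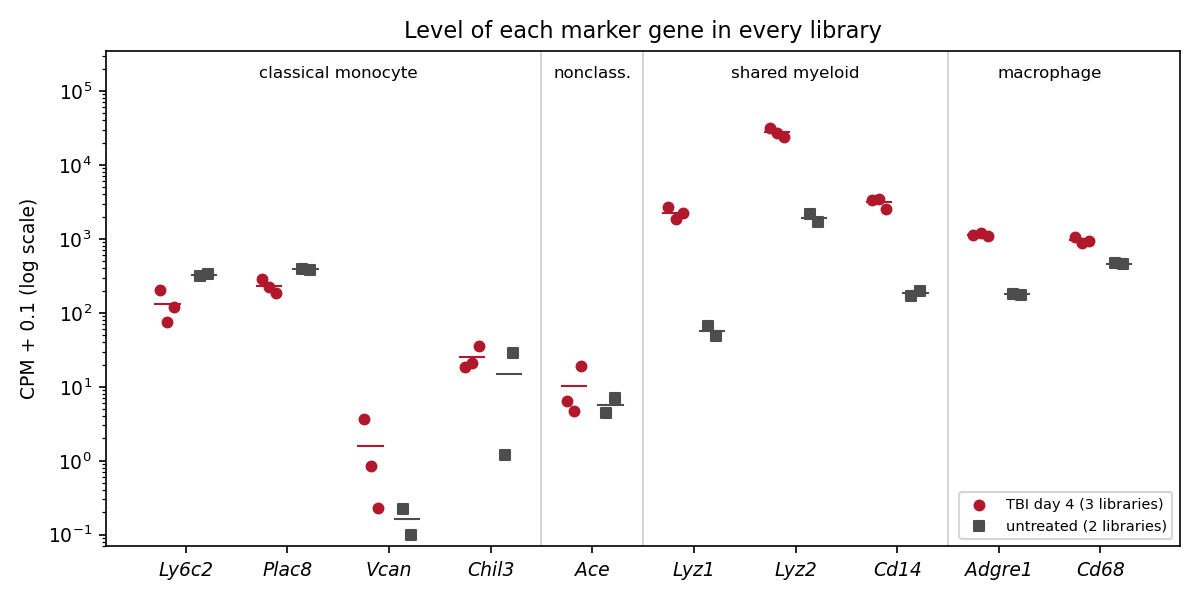
CPM of each marker gene on a log axis, with 0.1 added, in 3 TBI libraries (circles) and 2 untreated libraries (squares). Lines mark group means. Lyz1, Lyz2, Cd14, Adgre1 and Cd68 lie above the untreated level in every TBI library, Ly6c2 and Plac8 below it, and Chil3 and Ace overlap.

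Lyz2, the lysozyme of myeloid cells, was the most abundant marker. It was counted at 31750.1, 27098 and 23935 CPM in TBI libraries, against 2159 and 1681 CPM in untreated libraries. The groups lay far apart, and the lowest TBI library was above the highest untreated one. The log2 fold change was 3.85 ± 0.18 (SE; edgeR adjusted p = 5.03e-06). Lyz1, best known from Paneth cells of the gut, was counted at 2722, 1831 and 2219 CPM in TBI libraries, against 67.1 and 47.8 CPM in untreated libraries. The change was 5.30 ± 0.25 on the log2 scale (SE; edgeR adjusted p = 6.37e-06), a 39.3-fold rise against 14.4-fold for Lyz2.

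Counts assigned to Lyz1 were a larger share of both lysozymes in TBI libraries. The share was 7.90% (95% exact binomial interval 7.79 to 8.01), 6.33% (6.23 to 6.43) and 8.49% (8.36 to 8.61) in TBI replicates 1, 2 and 3. In untreated replicates 1 and 2 it was 3.02% (2.77 to 3.28) and 2.76% (2.5 to 3.05). The groups did not overlap, and the intervals cover counting error of reads only.  The part of shared reads in the Lyz1 counts was not tested.

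**Figure D2:**
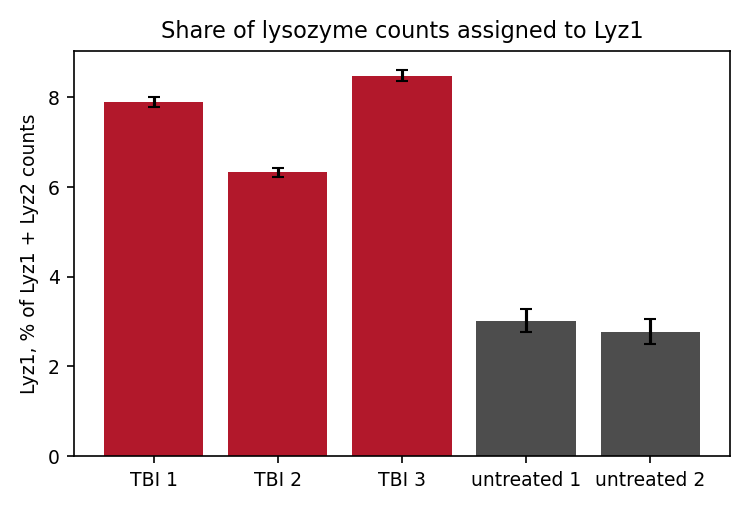
Share of Lyz1 among counts of Lyz1 and Lyz2 in each library, with 95% exact binomial intervals as bars. The TBI libraries lie between 6.33% and 8.49%, above the untreated libraries at 3.02% and 2.76%.

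Cd14, which hands lipopolysaccharide to the receptor TLR4, was counted at 3384, 3483 and 2563 CPM in TBI libraries and at 171 and 197 CPM in untreated libraries. The rise was 17.1-fold, or 4.10 ± 0.19 on the log2 scale (SE; edgeR adjusted p = 5.03e-06), and the groups did not overlap. Other genes of lipopolysaccharide recognition and Toll-like receptor signalling moved the same way in part. Of 10 on the list 6 rose and 4 (Ticam1, Tirap, Irak4 and Irak1) did not pass, with a median of 1.20. Those higher were the lipopolysaccharide-binding protein Lbp (5.42 ± 0.40), the receptor Tlr4 (2.64 ± 0.28), Tlr2 (2.0 ± 0.19), the adaptor Ticam2 (1.97 ± 0.25), the TLR4 partner Ly96 (1.75 ± 0.30) and the adaptor Myd88 (0.64 ± 0.14).

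Adgre1 varied least among the TBI libraries. Its level was 1120.3, 1194 and 1104 CPM in TBI libraries, against 181 and 174 CPM in untreated libraries. The rise was 6.43-fold, or 2.68 ± 0.13 on the log2 scale (SE; edgeR adjusted p = 5.62e-06). The highest TBI library exceeded the lowest by 1.08-fold, against a 6.43-fold difference between groups. Of its relatives among adhesion receptors, Adgre5 (CD97) also rose (1.52 ± 0.17), while Adgre4 had a log2 fold change of 0.34 ± 0.21 (edgeR adjusted p = 0.294).

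Cd68 changed least among the 5 markers that rose. It had 1073, 872 and 933 CPM in TBI libraries and at 466 and 453 CPM in untreated libraries, a 2.09-fold rise (1.06 ± 0.13 on the log2 scale, SE; edgeR adjusted p = 7.33e-04). The groups did not overlap. Its relatives in the lysosomal membrane, Lamp1 (1.6 ± 0.12) and Lamp2 (1.37 ± 0.12), also rose. Lamp3, another relative, had 0 counts in each TBI library and 0 and 2 counts in untreated libraries.

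The wider macrophage list moved with Adgre1 and Cd68. Of 27 other macrophage genes 20 rose, 2 fell (Mpeg1, which encodes perforin-2, at -1.78 ± 0.20 and Aif1, which encodes IBA1, at -0.50 ± 0.12) and 5, with Vcam1, Slc40a1, Spic and Sirpa among them, did not pass. The median was 2.84. The smallest p-values among those that rose belonged to the low-affinity IgG receptor Fcgr3 (3.82 ± 0.15), the scavenger receptor Msr1 (3.66 ± 0.16), the phospholipid transfer protein Pltp (2.84 ± 0.12) and Apoe (3.15 ± 0.15). Without TBI replicate 2 or either untreated replicate, 1 gene was lower.

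Ly6c2, which defines classical monocytes in the mouse, went against these genes. It was counted at 202, 74.4 and 121 CPM in TBI libraries, against 319 and 333 CPM in untreated libraries. Every TBI library lay below both untreated libraries, and the TBI libraries differed among themselves by 2.72-fold. The log2 fold change was -1.30 ± 0.34 (SE; edgeR adjusted p = 0.0251). Without TBI replicate 3, untreated replicate 1 or untreated replicate 2 the call was lost (edgeR adjusted p = 0.0879, 0.0774 and 0.0944), with the direction kept. Its near-copy Ly6c1 had 35, 27 and 34 counts in TBI libraries and 8 and 4 counts in untreated libraries (2.5 ± 0.62; edgeR adjusted p = 0.0218). Ly6c1 was thus higher where Ly6c2 was lower, at counts far below those of Ly6c2.

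Other Ly6 genes were mostly lower. Of 8 family members tested, Ly6c2 among them, 5 fell, Ly6c1 rose and 2 (Ly6e and Ly6g5b) did not pass. Ly6d, a gene of B cells and plasmacytoid dendritic cells, fell by 2.10 on the log2 scale. Ly6i (-1.47 ± 0.41), Ly6k (-1.19 ± 0.33) and Ly6a, which encodes the stem cell antigen Sca-1 (-0.65 ± 0.19), were also lower. The lower members numbered 3 without TBI replicate 2 and 1 without TBI replicate 3 or either untreated replicate. The Ly6c1 call was lost without either untreated replicate.

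Plac8, which is expressed by classical monocytes and by plasmacytoid dendritic cells, was also lower. Its level was 285, 221 and 183 CPM in TBI libraries, against 398 and 378 CPM in untreated libraries. The groups did not overlap, and the log2 fold change was -0.76 ± 0.18 (SE; edgeR adjusted p = 0.0198). The call was lost without TBI replicate 2, untreated replicate 1 or untreated replicate 2 (edgeR adjusted p = 0.0754, 0.127 and 0.0928).

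Genes of other cells that carry Ly6c2 or Plac8 moved as well. Plasmacytoid dendritic cells carry both, and of 16 of their markers 13 fell and 3 (Upb1, Mzb1 and Pld4) did not pass, with summed levels of 1521 to 1614 CPM in TBI libraries and 4731 to 4763 CPM in untreated libraries. Of 13 T cell genes tested 8 fell, Cd3g rose (0.57 ± 0.17) and Cd3e, Cd3d, Lck and Lat did not pass. The Cd3g call was lost without TBI replicate 3 or either untreated replicate, and under 2 other scalings. Together these genes summed to 1682 to 1752 CPM in TBI libraries and 2580.2 to 3041 CPM in untreated libraries. Natural killer genes ran the other way, with 9 of 11 higher and sums of 1212 to 1459.9 CPM in TBI libraries and 179 to 183 CPM in untreated libraries. Of 9 B cell and plasma cell genes 6 were higher and 2 lower, or 1 lower without TBI replicate 2 or either untreated replicate, with the replicate block or with the stricter filter. They summed to 1828, 588 and 846 CPM in TBI replicates 1, 2 and 3 and to 236 and 229 CPM in untreated replicates 1 and 2. Jchain alone gave 1404, 147 and 577 CPM of the sums in TBI replicates 1, 2 and 3. The part of these cells in the Ly6c2 and Plac8 results was not tested.

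Other classical monocyte genes mostly rose, unlike Ly6c2 and Plac8. Of 16 on the list 12 were higher, 2, with Ly6a among them, were lower and Ms4a4c and Cd177 did not reach the threshold. Their median was 1.67. The smallest p-values belonged to coagulation factor F13a1 (5.20 ± 0.31), fibronectin Fn1 (6.19 ± 0.42), the lectin Clec4d (4.70 ± 0.37) and Ifitm6 (4.53 ± 0.37). Some of these genes are also expressed by macrophages, Fn1 and F13a1 among them. The lower genes numbered 1 without TBI replicate 2, TBI replicate 3 or either untreated replicate.

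Chil3 did not pass the test, and the untreated libraries differed widely from each other. The level was 18.5, 20.9 and 35.5 CPM in TBI libraries, against 1.11 and 28.2 CPM in untreated libraries. Untreated replicate 1 lay below every TBI library and untreated replicate 2 lay among them, a 25.4-fold gap between the untreated libraries. The log2 fold change was 0.77 ± 0.87 (SE; edgeR adjusted p = 0.572). It was 4.47 without untreated replicate 2 (edgeR adjusted p = 0.00185) and -0.17 without untreated replicate 1 (edgeR adjusted p = 0.866).

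Some genes of neutrophils and their precursors, which also express Chil3, differed between the same untreated libraries, and others did not. Of 13 neutrophil genes 9 were over 2 times as high in untreated replicate 2 as in untreated replicate 1, and Csf3r, Cxcr2, Retnlg and Mmp9 were within 2-fold. Of 8 precursor genes, 2 of them also on the neutrophil list, 5 were over 2 times as high in untreated replicate 2 and Cebpe, Cd34 and Kit were within 2-fold. For example, Csf3r, the receptor of the granulocyte growth factor G-CSF, had 19.3 and 18.5 CPM in untreated replicates 1 and 2. Mpo, the myeloperoxidase of granulocyte precursors, had 0 counts in each TBI library and 67 and 872 counts in untreated replicates 1 and 2. Elane, neutrophil elastase, had 0 counts in each TBI library and 0 and 216 counts in untreated libraries. The granule gene Ngp had 716, 0 and 98 counts in TBI libraries and 0 and 603 counts in untreated libraries.

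Summed over 13 neutrophil genes, the level was 816, 519 and 598 CPM in TBI libraries and 60.7 and 458 CPM in untreated libraries. Mmp9 alone gave 203, 290 and 319 CPM of these sums in TBI libraries and 4.94 and 8.72 CPM in untreated libraries. The sums therefore do not show that neutrophil genes in general were higher in every TBI library. Chil3 was highest in TBI replicate 3, while Ngp was highest in TBI replicate 1. Of 12 neutrophil genes tested, Csf3r, Retnlg and Mmp9 were higher, a count of 3 that was 1 without untreated replicate 1 and 5 without untreated replicate 2. Of 6 genes of granulocyte and monocyte precursors tested, Mpo, Ctsg, Cd34 and Kit were lower, with sums of 47.5 to 90.0 CPM in TBI libraries and 205 and 354 CPM in untreated replicates 1 and 2. Of these, 2 were lower without untreated replicate 2 or with the stricter filter, and the Mpo call was also lost with limma-voom or robust shrinkage. Kit, also on the list of core dendritic cell genes, gave 16.9, 37.7 and 57.1 CPM of the precursor sums in TBI libraries. In untreated replicates 1 and 2 it gave 162 and 161 CPM of them. The part of neutrophils or their precursors in the Chil3 counts was not tested.

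**Figure D3:**
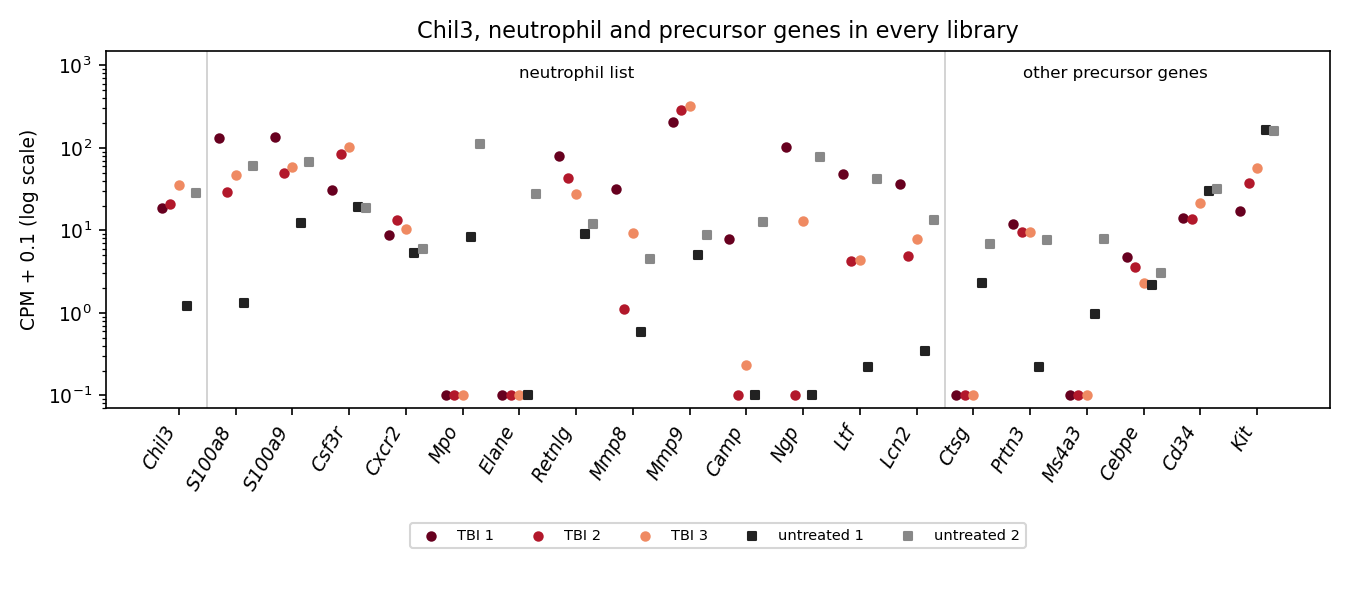
CPM of Chil3, of 13 neutrophil genes and of 6 further precursor genes on a log axis, with 0.1 added, in 3 TBI libraries (circles) and 2 untreated libraries (squares). Untreated replicate 2 lies far above untreated replicate 1 for Chil3, Mpo, Elane, Ngp and Ltf, while the untreated libraries lie close together for Csf3r, Cxcr2, Retnlg, Cebpe, Cd34 and Kit.

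Chil3 is also known as a product of alternatively activated mouse macrophages, and most genes of that state rose. Of 8 tested, Retnla (7.30 ± 0.25), Arg1 (4.28 ± 0.46), the lectins Mgl2 (2.10 ± 0.22) and Clec10a (1.19 ± 0.19) and the receptor Il4ra (1.07 ± 0.17) were higher, and Stat6, Socs2 and Pdcd1lg2 did not pass. The median was 1.13. Retnla, which encodes the secreted protein RELMα, had 36481, 49305 and 31222 counts in TBI libraries, against 291 and 238 counts in untreated libraries. Chil4 had at most 4 counts in a library, and Chil1 did not pass (1.43 ± 1.27, edgeR adjusted p = 0.466).

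Vcan was near the detection floor. It had 25, 6 and 1 counts in TBI libraries and 1 and 0 counts in untreated libraries. In counts, TBI replicate 3 was thus no higher than untreated replicate 1, and their CPM of 0.131 and 0.123 differed by library size only. The ratio of TBI to untreated levels was 22.8 with a 95% exact binomial counting interval of 3.81 to 928, and 7.21 (0.926 to 325) without TBI replicate 1. In a fit without the low-count filter the edgeR adjusted p was 0.155.

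Stromal cells also make versican. The mesenchymal genes summed to 271, 33.3 and 122 CPM in TBI libraries and 4.81 and 2.40 CPM in untreated libraries, with 5 of 6 tested higher (2 with limma-voom) and Pdgfra at 0 counts in every library. TBI replicate 1 was highest in both, while replicates 2 and 3 ran in opposite order. The part of stromal RNA in the Vcan counts was not tested. Of 5 hyaluronan and versican partners tested, Lyve1 (7.94 ± 0.29) and Has1 rose, and Cd44 (-0.10 ± 0.18), Hmmr and Adamts1 did not pass. Has1, a hyaluronan synthase, had 263, 11 and 49 counts in TBI libraries and 0 in each untreated library. Its call was lost without TBI replicate 3 or either untreated replicate, and with limma-voom.

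Ace, the nonclassical monocyte gene, was high in 1 library only. It was counted at 6.36, 4.56 and 19.1 CPM in TBI libraries, against 4.32 and 6.95 CPM in untreated libraries. TBI replicate 3 was high and the other TBI libraries lay within the untreated range. The log2 fold change was 0.83 ± 0.61 (SE; edgeR adjusted p = 0.373), or -0.04 without TBI replicate 3 (edgeR adjusted p = 0.954). Endothelial cells carry this enzyme too. Their markers summed to 33.7, 48.7 and 54.5 CPM in TBI libraries and 171 and 146 CPM in untreated libraries, with 3 of 6 tested lower (5 with limma-voom) and Tek and Emcn at 0 counts in every library. Pecam1 alone gave 27.9, 37.6 and 46.5 CPM of these sums in TBI libraries and 110 and 92.8 CPM in untreated libraries. The part of endothelial cells in the Ace counts was not tested.

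Other nonclassical monocyte genes had no common direction. Of 15 tested, Cebpb, Fcgr4, Ear2, Pou2f2 and Cd300e were higher, Treml4 and Eno3 were lower and the other 8 were not called. The median was 0.05. The transcription factor Cebpb (2.97 ± 0.15), the IgG receptor Fcgr4 (4.07 ± 0.25) and the ribonuclease Ear2 (3.10 ± 0.35) had the smallest p-values among the rises. Treml4, a receptor of nonclassical monocytes and some dendritic cells, fell by 1.40 on the log2 scale. Nr4a1, the transcription factor that nonclassical monocytes need, had -0.14 ± 0.11 (edgeR adjusted p = 0.437), and the receptor Cx3cr1 had 0.05 ± 0.22 (edgeR adjusted p = 0.888). Higher genes numbered 3 without TBI replicate 2 or either untreated replicate, and lower genes numbered 1 without TBI replicate 2 or untreated replicate 1. With library size alone as the scaling 4 genes were lower.

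**Figure D4:**
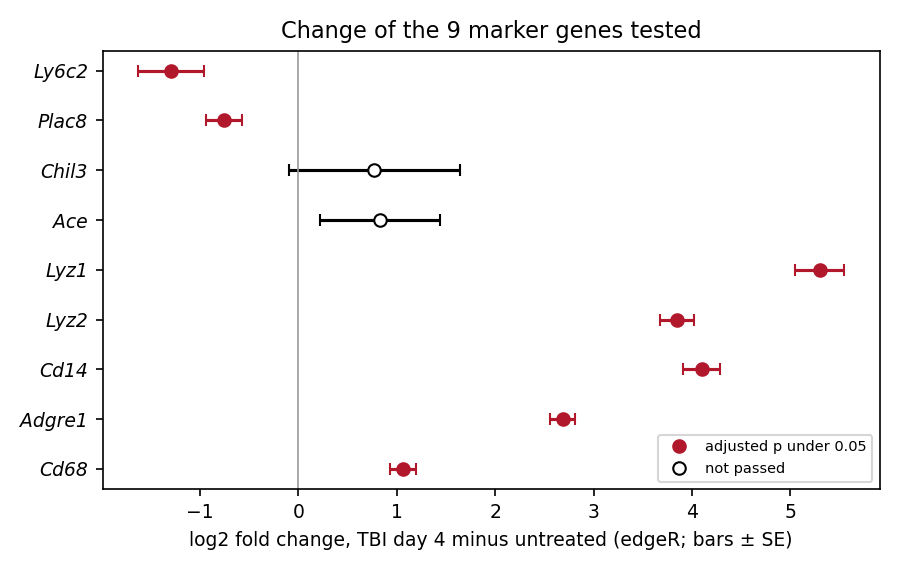
Log2 fold change of the 9 markers tested, TBI minus untreated, with standard errors as bars (edgeR). Filled points passed an adjusted p of 0.05. Ly6c2 and Plac8 lie below 0, Chil3 and Ace did not pass, and the lysozymes, Cd14, Adgre1 and Cd68 lie above 0.

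Ratios within a library compare classes without scaling between libraries. The log2 ratio of Ly6c2 to Adgre1 counts was -2.47, -4.0 and -3.18 in TBI libraries, against 0.82 and 0.94 in untreated libraries. Ly6c2 thus had fewer counts than Adgre1 in every TBI library and more in both untreated libraries. The difference of group means was -4.10. It was -5.26 for Ly6c2 to Lyz2, -3.46 for Plac8 to Adgre1 and -2.10 for Ace to Adgre1, and in each of these 4 pairs the groups did not overlap. Adgre1 and Lyz2 themselves rose by 2.68 and 3.85 on the log2 scale. A gene that did not change would therefore also have a lower ratio to them in TBI libraries. Ace did not pass the test by itself, so its lower ratio does not show a fall of Ace. How many other genes would separate the groups in this way was not tested.

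Exact two-sided permutation tests over the 5 libraries gave p = 0.1 for the ratios with Ly6c2 or Plac8 and p = 0.2 for Ace to Adgre1. After Benjamini-Hochberg adjustment over 6 pairs these were 0.2 and 0.3. The design allows no p under 0.1, so these tests cannot pass 0.05. Vcan to Adgre1 differed by 0.27 and Chil3 to Adgre1 by -0.62 (exact permutation p = 0.9 and 0.8). The Vcan difference was -0.80 without TBI replicate 1 and -0.47 without untreated replicate 2, and the Chil3 difference was 1.7 without untreated replicate 2 and -2.95 without untreated replicate 1.

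**Figure D5:**
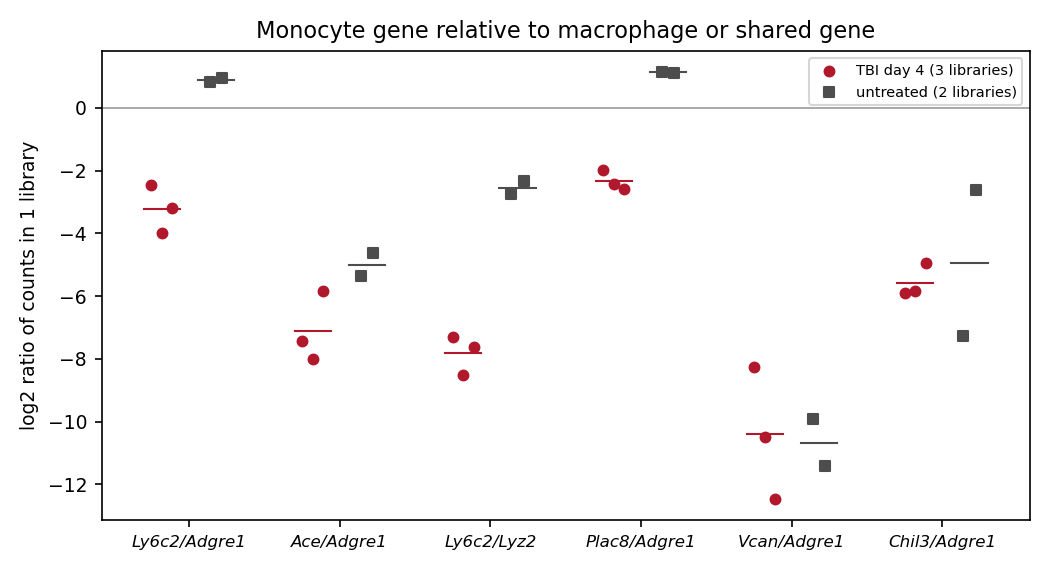
Log2 ratio of counts of the first to the second gene within each library, with group means as lines, for 3 TBI libraries (circles) and 2 untreated libraries (squares). Ly6c2 and Plac8 relative to Adgre1 lie below 0 in each TBI library and above 0 in both untreated libraries, and the Vcan and Chil3 ratios overlap.

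Levels of different genes were compared per length, as CPM per kilobase of merged exons. For Ly6c2 the merged exons cover 2740 bases, while its longest protein-coding transcript has 822 bases. Its levels per length would be higher with that transcript, and its place in the orders below may change with the length used. In TBI libraries the order was Lyz2 (20968 ± 2987, SD, n = 3), Cd14 (1815 ± 291), Lyz1 (1788 ± 354), Cd68 (763 ± 81.9), Adgre1 (352 ± 14.9), Plac8 (144 ± 32.4), Ly6c2 (48.4 ± 23.6), Chil3 (15.3 ± 5.65), Ace (1.89 ± 1.5) and Vcan (0.104 ± 0.128). Cd14 and Lyz1 overlapped there and cannot be ordered. In untreated libraries the order was Lyz2 (1459 ± 257, SD, n = 2), Cd68 (366 ± 6.89), Plac8 (243 ± 8.87), Ly6c2 (119 ± 3.61), Cd14 (106 ± 10.6), Adgre1 (54.7 ± 1.46), Lyz1 (45.5 ± 10.8), Chil3 (8.98 ± 11.7), Ace (1.07 ± 0.352) and Vcan (0.00427 ± 0.00603). Chil3 and Ace overlapped there, and Adgre1 lay within 1 SD of Lyz1. Plac8 and Ly6c2 stood above Cd14, Adgre1 and Lyz1 per length in untreated libraries and below all 3 in TBI libraries.

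Some transcription factors of the myeloid lineage moved with these genes. Of 12 listed 6 were higher, Irf8 was lower (-2.01 ± 0.14) and 5 did not pass. Besides Cebpb, the macrophage factor Maf (3.30 ± 0.35) was higher, as were Klf4 (0.96 ± 0.17), Cebpa (0.95 ± 0.25) and Zeb2 (0.83 ± 0.21). Spi1, which encodes the master myeloid factor PU.1, had 0.16 ± 0.14 (edgeR adjusted p = 0.455). Without either untreated replicate the higher factors numbered 3.

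Promoters of 8 markers were found in the RefSeq table of GRCm38.p6, which covers 250 bases before and 50 after each start site. Cd68, which rose, and Ly6c2, which fell, are shown because both hold the letters GAGGAA, a core of PU.1 sites, while their counts moved in opposite directions. Capitals mark GAGGAA on either strand. The Cd68 promoter is chr11:69666121-69666420, minus strand, and that of Ly6c2 is chr15:75111922-75112221, minus strand.
Cd68: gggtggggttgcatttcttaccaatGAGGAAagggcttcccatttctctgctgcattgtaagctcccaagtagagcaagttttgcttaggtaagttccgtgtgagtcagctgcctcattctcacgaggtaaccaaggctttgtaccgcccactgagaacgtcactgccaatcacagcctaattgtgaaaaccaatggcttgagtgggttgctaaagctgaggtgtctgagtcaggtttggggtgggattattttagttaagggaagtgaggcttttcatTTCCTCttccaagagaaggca
Ly6c2: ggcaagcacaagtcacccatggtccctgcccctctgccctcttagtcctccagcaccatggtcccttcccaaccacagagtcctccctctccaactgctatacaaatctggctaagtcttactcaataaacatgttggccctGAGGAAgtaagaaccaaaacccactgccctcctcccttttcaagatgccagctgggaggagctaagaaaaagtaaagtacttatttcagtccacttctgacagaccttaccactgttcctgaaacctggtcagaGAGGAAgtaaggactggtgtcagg
Each holds 2 matches, and 28.3% of all promoter windows of this length hold at least 1. Plac8 and Ace each held 2 in 1 of their 2 windows, and these letters are not in the windows of Lyz1, Lyz2, Vcan or Chil3. The letters TTGCNNAA, a C/EBP pattern searched on both strands, were in the windows of Cd68, Lyz1 and 1 of 2 of Plac8, and in 10.8% of all windows.

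The genes whose pattern over the 5 libraries was most like a marker's were named by the root mean square difference of centred log2 CPM, among 7446 genes. For Adgre1 they were the chemokine receptor Ccr1 (0.08) and Pltp (0.09), and for Cd68 the NF-κB inhibitor Nfkbia (0.03) and the decoy receptor Il1r2 (0.05). For Lyz2 they were S1pr1 (0.09) and Rnase4 (0.10), for Lyz1 Ltc4s (0.12) and Cbr2 (0.14), and for Cd14 the chemokine Ccl6 (0.14) and the leukotriene receptor Ltb4r1 (0.16). For Plac8 they were Mynn (0.03) and Rcbtb2 (0.05), and for Ly6c2 Rnf113a2 (0.18) and the phosphatase Dusp4 (0.18). The closest genes to Ace, Klhl21 (0.39) and 4930427A07Rik (0.41), and to Chil3, S100a8 (0.98) and S100a9 (0.98), were much farther off.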

How the data were processed

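RNA of sorted thymic dendritic cells was sequenced from libraries made with a SMART-Seq v4 kit, per the labels. The submitters' processing notes name STAR 2.5.2a, the build mm10, featureCounts 1.6.0 of Subread and edgeR. The authors deposited whole-number counts for each gene symbol, which are not normalized. The annotation, strand setting, treatment of shared reads and radiation dose are not given in the sources used here. The treatment note names the irradiated thymi by another day, while titles and treatment labels give day 4, which was used.

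Counts were tested in R 4.3.3 with edgeR 4.0.16: filterByExpr (minimum count 10, minimum total 15), TMM, the quasi-likelihood F-test with group as the only term and Benjamini-Hochberg adjustment over 12046 genes. CPM uses TMM-scaled library sizes. A spreadsheet had turned 23 symbols into dates, and these genes (0.221% of counts) stayed in the totals and tests. Gene models and transcripts came from GENCODE vM21. The kit adds no molecular identifiers, so copies of a molecule cannot be told apart from separate molecules. The binomial intervals cover counting error of reads only and may be too narrow. The functions were tested on simulated data. Figures used matplotlib 3.10.9.

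The markers and gene lists were chosen with earlier results of these data known. Up to 4 genes of a list were named by smallest p. Genes named because 5 or fewer moved one way or did not pass, and the lists of sort genes and of precursor genes, with the 2-fold limit between untreated libraries, were chosen after their values were seen. Alternatives were other scalings and filters, DESeq2 1.42.0, limma-voom (limma 3.58.1), robust shrinkage, a block for replicate number and fits that each omit a library. A few list members are counted but not reported by name here.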

Additional observations from a re-analysis of the deposited data

How the results depend on the processing

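The 5 rises (Lyz1, Lyz2, Cd14, Adgre1 and Cd68) passed under all 14 alternatives. The 2 falls (Ly6c2 and Plac8) kept their direction under all 14 and passed under 11 each. With 1 library left out, 5 to 6 markers were higher and 0 to 2 lower, and over all genes 810 to 2148 were higher and 423 to 1780 lower. Without an untreated library the other stands alone, and its spread is taken to equal that of the TBI libraries. Library size alone gave 2129 lower genes, with 36.8% of calls higher against 57.6%, and moved the median log2 fold change of all genes to -0.23. Cd68 was then at 0.83, above that shift. With the replicate block 5 markers were higher and 2 lower, and 1493 and 1284 of all genes. The labels do not say that replicate numbers pair libraries, and deviations of same-numbered libraries correlated at -0.016 and -0.0099. The difference between groups in the Vcan to Adgre1 log2 ratio was -0.76 with a pseudocount of 2 counts and -0.80 to 1.30 with 1 library left out. That of Chil3 to Adgre1 was -2.95 to 1.70 with 1 library left out. The cause was not tested. Ace had a log2 fold change of -0.03 with the replicate block. At this depth a floor of 3 counts was up to 0.434 CPM, which limits statements about Vcan.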
